A study of Rattus norvegicus with 14 samples.

Results

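Phosphoribosyl pyrophosphate (PRPP) synthetase and its associated proteins were represented on the array by 4 genes, Prpsap1, Prpsap2, Prps1 and Prps2, of 4156 genes with a symbol. They were chosen by symbol in the platform annotation, and the family was taken up because Prpsap1 had a high ratio at 4 h, so for Prpsap1 the values below are a description with no test. Each gene has a single probe, number 4814 for Prpsap1 (Entrez Gene 64390), 157 for Prpsap2 (117272), 1211 for Prps1 (29562) and 3870 for Prps2 (24689). The reference gene table places Prpsap1 and Prpsap2 on rat chromosome 10 and Prps1 and Prps2 on chromosome X. The probe sequences were not used here, so signal shared between the close relatives Prps1 and Prps2 cannot be told apart.

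The data are ratios from 2-colour arrays of RNA from the small intestine of rats aged 20 days, perfused with solutions named HF and HG. These names are read here as high fructose and high glucose, from knowledge of the study and not from its labels. In 5 arrays an HF sample was set against the HG sample of the same number after 4 h, and in 4 arrays after 20 min. Channel 1 held the HG sample and channel 2 the HF sample, by the labels. As the reference, 3 arrays carried a single RNA from 4 h of perfusion on each side; they are named after that RNA (1HG, 3HG, 3HF) and called same-RNA arrays. A sixth 4 h array (array 6) repeated pair 2, and 1 array is labelled as carrying the primers of the labelling kit. The labels name no strain, sex or genotype, and intestine perfused with neither solution was not analysed here. Nothing says whether pairs came from separate animals, so a p-value reflects array-to-array spread, which may be technical.

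A ratio holds no level, so neither the amount of an RNA nor the tissue's marker genes can be read as present or absent from it, and fewer cells of a type and less RNA per cell cannot be told apart. All values are log2 ratios with each array's median at 0, base 2 being assumed. Their direction is not given. A positive ratio likely means more RNA with HF: the title of array 6 marks HG with 5 and HF with 3, read as a swap of the dyes, and Slc2a5, the fructose transporter known to be induced by fructose, had a mean of 1.65 ± 0.25 (SD, n = 5) on the 4 h arrays and -1.66 on array 6. Over all probes the 9 tested arrays of 4 h and 20 min had SDs of 0.33 to 0.40, and the SD was 0.82 on array 6, 1.39 on 1HG, 0.35 on 3HG, 0.30 on 3HF and 0.18 on the primer array. The 3 same-RNA arrays therefore differed widely, and all 3 were kept in the tests. By their names, their RNAs are also on the 4 h arrays of the same numbers. Array 6 was left out of all tests because its dye orientation is unsettled and earlier results of these data showed it to differ.

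PRPP is the activated form of ribose phosphate, made from ribose phosphate and ATP. Cells use it to build purine and pyrimidine nucleotides, to salvage free bases and to make NAD. In mammals Prps1 and Prps2 encode catalytic subunits of the synthetase. Prpsap1 and Prpsap2 encode related proteins that lack this activity in isolation, were purified in complex with the catalytic subunits from rat liver, and are known as negative regulators of the enzyme. The ribose phosphate comes from the pentose phosphate pathway, which draws on hexose phosphates.

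Of the RefSeq promoters of build GRCr8 (from 250 bases before to 50 after the gene start) those of all 4 genes were matched. The sequences of Prpsap1, whose ratio stood apart at 4 h, and of its nearest relative Prpsap2 are shown for comparison, 5′ to 3′ on the strand of the gene. Capitals mark the GC box GGGCGG on either strand, which is written CCGCCC where it lies on the opposite one. The Prpsap1 window is chr10:102221593-102221892 and the Prpsap2 window chr10:46945254-46945553, both on the minus strand.
Prpsap1: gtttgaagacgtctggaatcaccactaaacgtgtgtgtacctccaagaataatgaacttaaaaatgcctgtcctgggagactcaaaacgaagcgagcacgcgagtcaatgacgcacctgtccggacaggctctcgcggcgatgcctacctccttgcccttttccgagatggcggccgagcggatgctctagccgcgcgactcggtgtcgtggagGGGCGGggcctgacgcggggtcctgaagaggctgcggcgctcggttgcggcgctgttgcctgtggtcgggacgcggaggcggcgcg
Prpsap2: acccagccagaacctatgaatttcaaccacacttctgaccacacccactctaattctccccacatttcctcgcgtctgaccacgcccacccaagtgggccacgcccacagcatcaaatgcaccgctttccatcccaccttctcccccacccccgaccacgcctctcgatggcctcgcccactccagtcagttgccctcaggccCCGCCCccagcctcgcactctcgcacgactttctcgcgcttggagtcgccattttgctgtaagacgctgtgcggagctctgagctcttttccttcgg

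The Prpsap1 window holds 34 CpG dinucleotides, against 19 in that of Prpsap2, 14 for Prps1 and 9 for Prps2, and 93.2% of the 33469 promoters of this length hold fewer than Prpsap1. Relative to the gene start the GC box begins at -36 in Prpsap1 and at -47 in Prpsap2. Prps1 holds 3 GC boxes and Prps2 none, and 33.1% of all promoters hold at least 1. The CCAAT box was found once in each of Prps1 and Prps2, and in 37.5% of all promoters. The E-box CACGTG (6.4% of all promoters), the cAMP response element TGACGTCA (1.8%) and the ATF4 and CEBP composite TGATGNAA (4.0%) were searched on both strands and are in none of the 4 windows. No motif overlapped another. The motifs were chosen after these promoters had been seen. The matches describe letters in the windows and were not tested against the ratios.

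Prpsap1 was high on the HF side after 4 h and not after 20 min. Its ratio was 1.15, 0.44, 0.95, 0.90 and 0.84 on 4 h arrays 1 to 5. It was 0.14, -0.49, -0.18 and -0.22 on the 20 min arrays 1 to 4, and -0.23, 0.09 and 0.04 on the same-RNA arrays 1HG, 3HG and 3HF. Every 4 h array lay above every 20 min and every same-RNA array, while the 20 min and same-RNA arrays overlapped. On 4 h arrays 1, 3, 4 and 5 the ratio was higher than that of 98.7% to 99.7% of all features. On array 2 it was higher than 92.7%. On the 20 min arrays the same share ran from 4.51% to 72.4%.

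**Figure D1:**
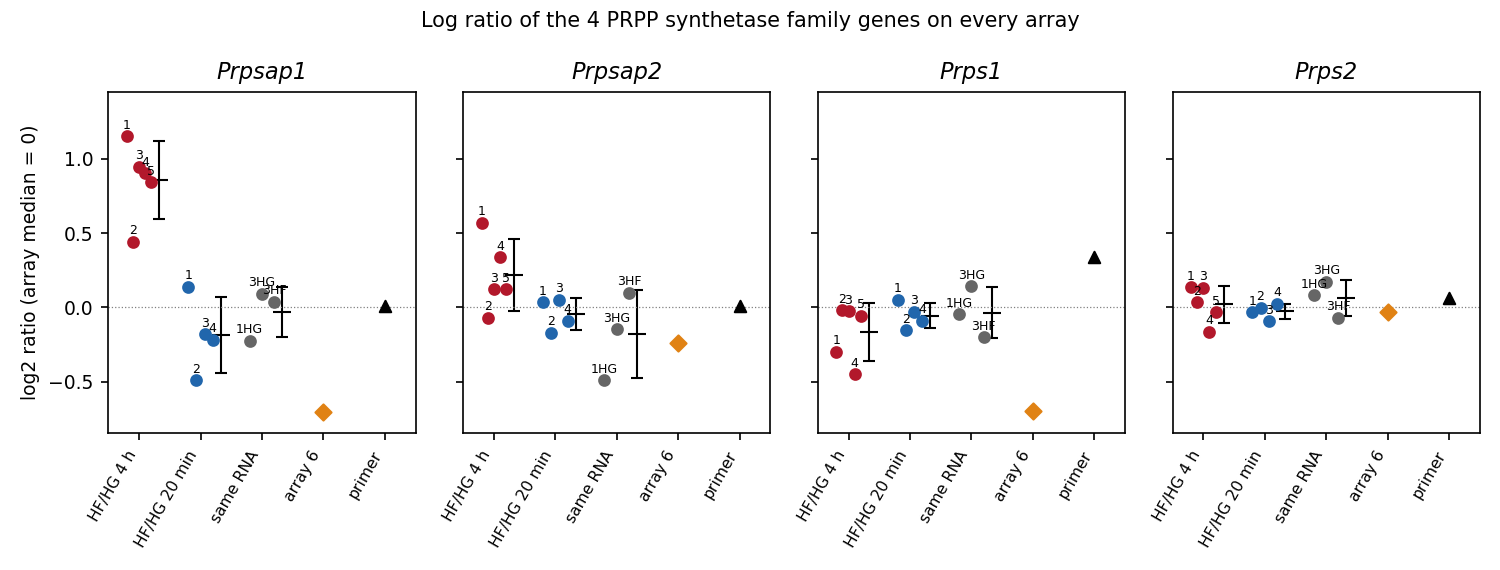
Log2 ratio (vertical axis) of Prpsap1, Prpsap2, Prps1 and Prps2 on every array, by group: 5 HF against HG arrays at 4 h (red), 4 at 20 min (blue), 3 same-RNA arrays (grey), array 6 (orange diamond) and the primer array (black triangle). Small labels give the array, bars the mean ± SD. The 4 h points of Prpsap1, between 0.44 and 1.15, lie above all its 20 min and same-RNA points, and those of the other genes overlap them.

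The mean ratio of Prpsap1 was 0.86 ± 0.26 (SD, n = 5) at 4 h, against -0.03 ± 0.17 (n = 3) on the same-RNA arrays, a difference of 0.89 ± 0.17 (SE) or 1.85-fold. The means were 0.86 at 4 h and -0.19 ± 0.26 (n = 4) at 20 min, a difference of 1.04 ± 0.16 (SE) or 2.06-fold. At 20 min the difference from the same-RNA arrays was -0.15 ± 0.18. The comparisons share arrays and are given side by side only. Prpsap1 ranked 97 of 4682 features by its difference from the same-RNA arrays and 10 by that between the times. The genes next to it in that order were Slc19a1, the reduced folate carrier (1.13), and Reg1a, a secreted protein known from pancreas and regenerating epithelium (0.98). Reg1a had means of 0.49 ± 0.76 (SD) at 4 h and -0.49 ± 1.26 at 20 min, with overlapping arrays. By the rule for naming genes its neighbours in the order of p were also named, Hspbp1, a partner protein of Hsp70 (1.17), and Rnf4, a ubiquitin ligase (0.66). As Prpsap1 was picked for its ratio at 4 h, that order is no test of it. Hspbp1 had means of -0.28 at 4 h and -1.45 at 20 min, so its difference came from low ratios at 20 min. In limma's test 0.0641% of all features were called at 4 h against the same-RNA arrays, and 0.598% between the times. All 4 h arrays lay above all same-RNA arrays in 3.31% of features, and above all 20 min arrays in 3.42%. Because Prpsap1 was picked for this contrast, nothing is read from those shares.

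With each array left out in turn the difference of Prpsap1, whose direction its choice fixes, ran from 0.79 to 0.99 against the same-RNA arrays and from 0.94 to 1.15 between the times. The lowest values were those without 1HG (0.79) and without 20 min array 2 (0.94). With quantile normalization the differences were 1.22 and 1.40. Averaging array 6 with array 2 as deposited, or with its sign turned, gave values of the same sign.

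Array 6 holds the RNAs of pair 2 again, and Prpsap1 had a ratio of -0.70 there, against 0.44 on array 2. This is the change of sign that Slc2a5 showed. For Prpsap2 these ratios were -0.24 and -0.07, for Prps1 -0.70 and -0.02 and for Prps2 -0.03 and 0.03. Prps1, which lay near 0 on array 2, was thus as far below 0 on array 6 as Prpsap1, and the dye of each channel is not given for either array. On the primer array Prpsap1 (0.01), Prpsap2 (0.01) and Prps2 (0.06) were near 0, and Prps1 was at 0.34.

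Probes with numbers close to that of Prpsap1 also lay above 0 at 4 h in their median, by less. The median ratio of the 20 probes within 10 numbers of it was 0.26, 0.03, 0.22, 0.17 and 0.07 on 4 h arrays 1 to 5. It was -0.02, -0.04, 0.11 and 0.19 on the 20 min arrays. As for Prpsap1 itself, the highest 4 h median was on array 1 and the lowest on array 2. Prpsap1 minus this median was 0.89, 0.42, 0.72, 0.73 and 0.77 at 4 h, and 0.16, -0.45, -0.29 and -0.41 at 20 min. Of the 20 probes 0, 2, 1, 0 and 1 had a higher ratio than Prpsap1 on 4 h arrays 1 to 5. On the 20 min arrays these counts were 3, 20, 17 and 19. Whether probe numbers follow positions on the array is not given.

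Prpsap2, the second associated protein, leaned the same way as Prpsap1 but did not pass the test. Its ratio was 0.57, -0.07, 0.12, 0.34 and 0.12 on 4 h arrays 1 to 5, 0.04, -0.17, 0.05 and -0.09 at 20 min, and -0.49, -0.15 and 0.10 on 1HG, 3HG and 3HF. The 4 h arrays overlapped both other groups, with array 1 highest and array 2 lowest, as for Prpsap1. The mean was 0.22 ± 0.24 (SD, n = 5) at 4 h and -0.18 ± 0.30 (n = 3) on the same-RNA arrays, a difference of 0.40 ± 0.16 (SE; 95% interval 0.05 to 0.74; limma adjusted p = 0.446 over all features). Without 1HG, on which the gene was lowest, the difference was 0.24. Between the times the difference was 0.26 ± 0.15 (95% interval -0.06 to 0.58; limma adjusted p = 0.487), and 0.17 without 4 h array 1. At 20 min it was 0.14 ± 0.17 against the same-RNA arrays (limma adjusted p = 0.952), and -0.02 without 1HG.

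Neither catalytic subunit gene passed the test. Prps1 had ratios of -0.30, -0.02, -0.02, -0.45 and -0.06 on 4 h arrays 1 to 5, 0.05, -0.15, -0.03 and -0.09 at 20 min, and -0.05, 0.14 and -0.20 on 1HG, 3HG and 3HF. All 5 of its 4 h ratios were below 0, with arrays 4 and 1 the lowest, and the groups overlapped. Its difference was -0.13 ± 0.12 (SE) at 4 h against the same-RNA arrays (95% interval -0.41 to 0.14; limma adjusted p = 0.722) and -0.11 ± 0.11 between the times (-0.36 to 0.14; limma adjusted p = 0.741). The difference at 4 h was -0.05 without 3HG, -0.06 without 4 h array 4 and -0.22 without 3HF, and that between the times was -0.04 without 4 h array 4. At 20 min it was -0.02 ± 0.13 (95% interval -0.30 to 0.26; limma adjusted p = 0.992), and 0.07 without 3HG.

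Prps2 had ratios of 0.14, 0.03, 0.13, -0.17 and -0.03 on 4 h arrays 1 to 5, -0.03, 0.00, -0.09 and 0.02 at 20 min, and 0.08, 0.17 and -0.07 on 1HG, 3HG and 3HF. No group stood apart. Its difference was -0.04 ± 0.10 (SE) at 4 h against the same-RNA arrays (95% interval -0.25 to 0.17; limma adjusted p = 0.904), and 0.05 ± 0.09 between the times (-0.15 to 0.24; limma adjusted p = 0.888). At 20 min it was -0.09 ± 0.10 (95% interval -0.31 to 0.13; limma adjusted p = 0.952). A missed threshold does not show that the catalytic genes did not change.

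Of the 3 genes other than Prpsap1, 0 were called in limma's test in each of the 3 comparisons, against 0.0641% of all features at 4 h, 0.0427% at 20 min and 0.598% between the times. At an unadjusted p below 0.05 the count was 1, Prpsap2 at 4 h, where 9.97% of all features were below that limit. At shares this low 3 genes would hold a called one only rarely.

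**Figure D2:**
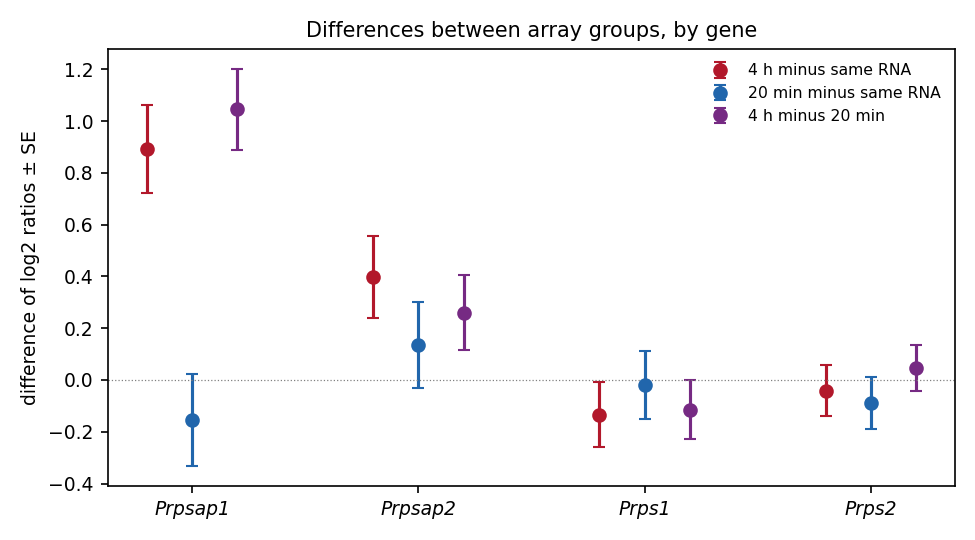
Difference of mean log2 ratios ± SE (vertical axis) for the 4 genes in the 3 comparisons: 4 h minus same RNA (red), 20 min minus same RNA (blue) and 4 h minus 20 min (purple). Prpsap1 has 0.89 and 1.04 in the comparisons that hold the 4 h arrays, and Prps1 and Prps2 lie within 0.15 of 0 throughout.

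Within an array the ratios of the family members can be set beside each other. Prpsap1 exceeded Prpsap2 on 5 of 5 arrays at 4 h, by 0.64 ± 0.13 (SD; 0.51 to 0.82). Between these arrays that gap varied less than Prpsap1 (SD 0.26) or Prpsap2 (SD 0.24) did. It exceeded Prpsap2 on 1 of 4 arrays at 20 min (mean -0.14 ± 0.18) and on 2 of 3 same-RNA arrays (0.15 ± 0.18). Prpsap1 exceeded Prps1 by 1.03 ± 0.40 and Prps2 by 0.84 ± 0.26 at 4 h, on 5 of 5 arrays each. Prps1 lay below Prps2 on 5 of 5 arrays at 4 h (-0.19 ± 0.17), on 2 of 4 at 20 min and on 3 of 3 same-RNA arrays. Prpsap1 was picked for its high ratio at 4 h, so its lead over the other members there is largely fixed by that choice. All these gaps are between ratios and say nothing of which RNA was more abundant.

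**Figure D3:**
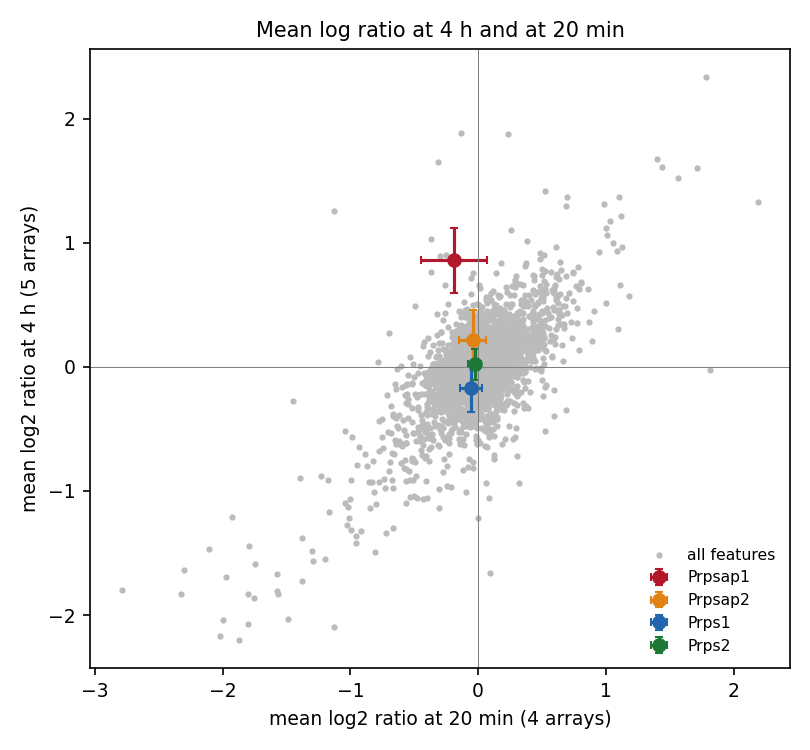
Mean log2 ratio at 4 h (vertical axis, 5 arrays) against that at 20 min (horizontal axis, 4 arrays) for 4682 features (grey), with the 4 family genes in colour and bars of 1 SD over arrays. Prpsap1 sits at 0.86 and -0.19, above the main cloud, and Prpsap2, Prps1 and Prps2 lie in it.

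The genes with the ratios most like those of Prpsap1 were sought by the smallest root mean square difference over the 12 arrays of 4 h, 20 min and same RNA. The 8 nearest of 4155 genes were Apeh (0.30), Trib3 (0.30), Gpd1 (0.33), Cox5a (0.33), Herpud1 (0.33), Eno1 (0.34), Dnajc3 (0.34) and Gne (0.35), where the median gene had 0.66. Prpsap2 ranked 117 (0.45), Prps2 1127 (0.59) and Prps1 2864 (0.72). No test is given for genes picked this way, and all were measured on the same arrays.

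Apeh encodes a peptidase that removes acylated amino acids, and averaged 0.52 ± 0.16 at 4 h (SD, n = 5) and 0.07 ± 0.18 at 20 min (n = 4). Trib3, a pseudokinase induced under stress of the endoplasmic reticulum, averaged 0.59 ± 0.23 at 4 h and -0.06 ± 0.17 at 20 min. Gpd1, the glycerol phosphate dehydrogenase of the cytosol, averaged 0.53 ± 0.15 at 4 h and -0.11 ± 0.15 at 20 min. All 3 had 4 h arrays above every 20 min and every same-RNA array.

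Herpud1, a protein of endoplasmic reticulum quality control, came closest to Prpsap1 in size, with 0.90 ± 0.28 at 4 h and -0.25 ± 0.50 at 20 min. Dnajc3, a chaperone partner of the endoplasmic reticulum, averaged 0.49 ± 0.23 and -0.04 ± 0.16, and Gne, which starts sialic acid synthesis, 0.46 ± 0.24 and -0.09 ± 0.20 at 4 h and at 20 min. Cox5a, a subunit of cytochrome oxidase, had 0.49 ± 0.24 at 4 h and 0.03 ± 0.10 at 20 min. Eno1, the glycolytic enolase, had 0.45 ± 0.30 at 4 h and 0.01 ± 0.12 at 20 min. In Cox5a and Eno1 the lowest 4 h array overlapped the 20 min arrays, and in the other 6 it did not. Every one of the 8 was above 0 on all 5 arrays at 4 h. Over all features, 3.42% had every 4 h array above every 20 min array. The 8 were picked for nearness to Prpsap1 on these same arrays, so such patterns are part of the choice and not a result.

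Array 6 was not used to find these genes, but it repeats the RNAs of a 4 h array that was. On array 6 itself 6 of the 8 were below 0, from -0.99 for Dnajc3 and -0.94 for Eno1 to -0.03 for Trib3. Apeh (0.11) and Cox5a (0.37) were above 0. Over all features 50.0% were below 0 on array 6. Of all 127 features whose 4 h arrays lay above 0 and above every 20 min array, 85 were below 0 on array 6, which is 66.9%. Cox5a and Eno1 are not among the 127. The 4 h array with the same RNAs also served to pick the 127, so neither count is an independent check.

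The list depends on the measure. Over the 9 arrays of HF against HG alone, 6 of the 8 stayed among the nearest 8. Atf4, a transcription factor of the stress response, became the nearest (0.23), and Pdk2 (0.35) also entered. Atf4, named after its values were seen, had ratios of 0.82, 0.39, 0.96, 0.65 and 0.76 at 4 h and between -0.14 and 0.14 at 20 min. On array 1HG it had 1.77, on 3HG -0.07 and on 3HF 0.03, which put it at rank 1364 over 12 arrays. By Pearson correlation over the 12 arrays 1 of the 8 stayed among the top 8, Apeh (r = 0.93). The genes that entered were Ctbp1 (0.89), Axin1 (0.88), Cyth2 (0.88), Cnga3 (0.88), Cpe (0.88), Slc2a5 (0.87) and Acads (0.87).

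**Figure D4:**
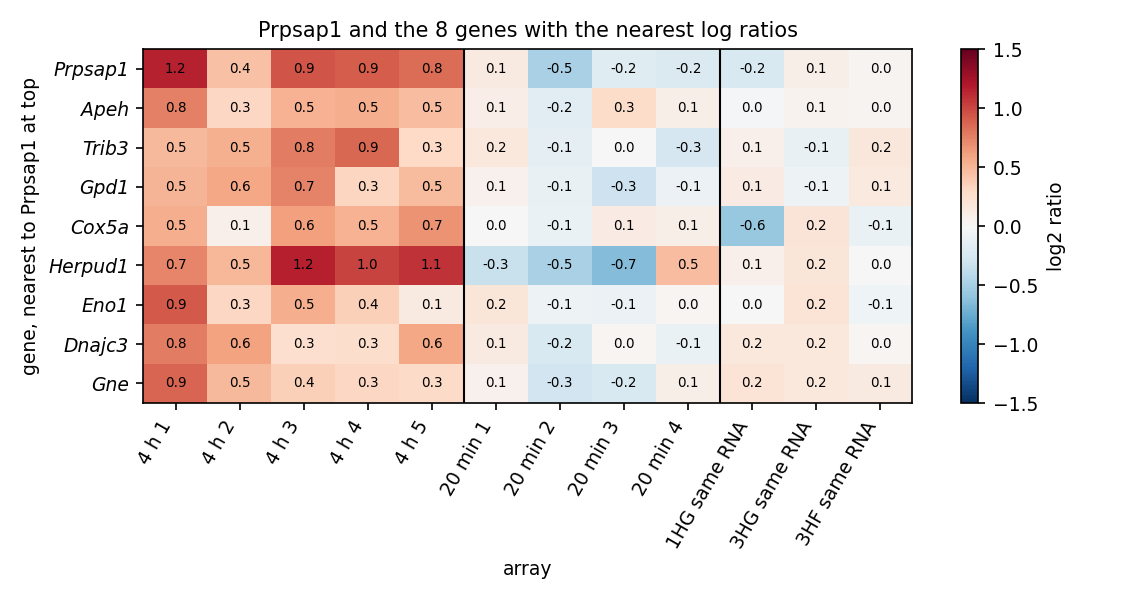
Log2 ratio of Prpsap1 and of the 8 genes nearest to it (rows, nearest at the top) on the 12 arrays of 4 h, 20 min and same RNA (columns), with colour limits at 1.5 either way and the value in each cell. The 4 h columns are positive in all rows, and the 20 min and same-RNA columns mostly lie near 0, with values further below 0 for Herpud1 and for Prpsap1 itself at 20 min and for Cox5a on 1HG.

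Among other measured genes that supply, use or lie downstream of PRPP none passed limma's test. The 5 lists of nucleotide metabolism, in which some symbols name the same gene, were only partly on the array. Measured were 2 of 14 listed symbols for PRPP supply, 3 of 13 for de novo purines and 8 of 19 for purine salvage and breakdown. For pyrimidines and NAD it was 3 of 22, none of them of NAD synthesis, and for nucleotide kinases and deoxynucleotides 9 of 23. In all 25 genes were measured, and 0 were called in each comparison. At an unadjusted p below 0.05 there were 2 at 4 h, 3 at 20 min and 3 between the times, which is 8%, 12% and 12% of the 25, against 9.97%, 5.21% and 13.5% of all features. The median difference of the 25 was 0.00 at 4 h, 0.03 at 20 min and 0.02 between the times, beside -0.01, 0.00 and -0.01 over all features. Between the times 15 lay above 0 and 10 below. Groups of arrays were apart without overlap for 0 of the 25 at 4 h, 3 at 20 min and 3 between the times, where 6.71%, 7.01% and 6.54% of all features were.

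**Figure D5:**
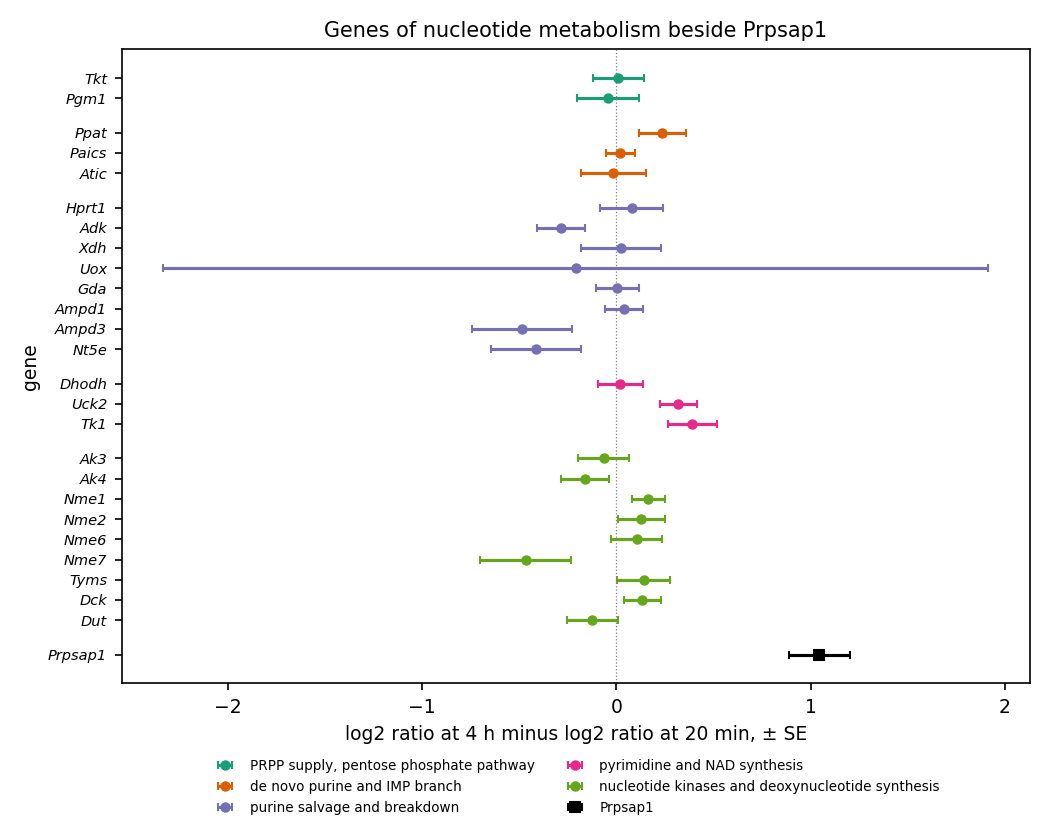
Log2 ratio at 4 h minus that at 20 min, ± SE (horizontal axis), for 25 genes of nucleotide metabolism grouped by list (colours), with Prpsap1 below them (black square). Prpsap1 lies at 1.04 and every other gene between -0.48 and 0.39. The wide bar of Uox comes from its ratio of 13.7 on 1HG.

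Of the list for the supply of ribose phosphate only Tkt, the transketolase, and Pgm1, a phosphoglucomutase, were measured. Tkt differed by -0.07 ± 0.14 (SE) at 4 h and -0.08 ± 0.15 at 20 min from the same-RNA arrays, and Pgm1 by 0.06 ± 0.17 and 0.10 ± 0.18. Between the times the differences were 0.01 for Tkt and -0.04 for Pgm1. The limma adjusted p of these 6 tests lay between 0.887 and 0.994.

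Of the de novo purine pathway Ppat, Atic and Paics were measured. Ppat encodes the amidotransferase that uses PRPP in the committed step. Its ratios were -0.25, 0.17, 0.34, 0.19 and 0.09 on 4 h arrays 1 to 5, -0.12, -0.25, 0.10 and -0.25 at 20 min, and -0.12, -0.13 and -0.26 on the same-RNA arrays. The groups overlapped, with array 1 the lowest at 4 h where Prpsap1 was highest. The difference of Ppat was 0.28 ± 0.13 (SE) at 4 h (limma adjusted p = 0.492), 0.04 at 20 min and 0.24 ± 0.12 between the times (limma adjusted p = 0.428). Atic, the enzyme of the last steps to IMP, differed by 0.29 and 0.31 from the same-RNA arrays at 4 h and 20 min and by -0.01 between the times. The first 2 values rest on 3HG, where Atic had -0.82, and without it they were 0.02 and 0.03. Paics, of the middle of the pathway, differed by 0.00, -0.02 and 0.02.

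Of the purine salvage and breakdown genes 8 were measured, 2 of them above 0 and 6 below at 4 h, with a median of -0.19. Hprt1, which salvages hypoxanthine and guanine with PRPP, differed by -0.41 ± 0.18 (SE; limma adjusted p = 0.469) at 4 h and by -0.49 ± 0.19 (limma adjusted p = 0.801) at 20 min. Its mean was 0.01 at 4 h and -0.07 at 20 min, while its same-RNA ratios were 0.81, 0.31 and 0.14. Without 1HG, the highest of these, the differences were -0.22 at 4 h and -0.30 at 20 min. Between the times the difference of Hprt1 was 0.08.

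Adk, the adenosine kinase, differed by -0.32 ± 0.13 (SE) at 4 h (limma adjusted p = 0.466) and by -0.29 ± 0.12 between the times (limma adjusted p = 0.335). Its 4 h arrays lay between -0.59 and 0.13 and its 20 min arrays between -0.02 and 0.12. Ampd3, an AMP deaminase, had -0.48 ± 0.26 between the times (limma adjusted p = 0.447), and Nt5e, the ectonucleotidase that releases adenosine, -0.41 ± 0.23 (limma adjusted p = 0.488). Without 4 h array 2 the difference of Ampd3 was -0.29. Without 20 min array 4, where Nt5e had 1.17, that of Nt5e was -0.15. Uox, the urate oxidase, had 13.7 on 1HG and between 0.06 and 0.54 on the 9 arrays of HF against HG, so its difference from the same-RNA arrays (-4.60 at 4 h) rests on 1HG. At 20 min that difference was -4.39, and 0.05 without 1HG.

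Tk1 and Uck2, which salvage thymidine and uridine, had the smallest p of the 25 between the times and did not pass. Uck2 ratios were -0.01, -0.04, 0.18, 0.25 and 0.07 at 4 h and -0.37, -0.26, -0.25 and -0.05 at 20 min. The lowest 4 h array lay just above the highest 20 min array. The difference of Uck2 was 0.32 ± 0.10 (SE; limma adjusted p = 0.17). Tk1 ratios were 0.15, -0.08, 0.27, -0.12 and 0.21 at 4 h and 0.05, -0.54, -0.35 and -0.38 at 20 min, with a difference of 0.39 ± 0.13 (limma adjusted p = 0.204). Both came from low ratios at 20 min, since the 4 h means were 0.09 for each. Against the same-RNA arrays the 20 min differences were -0.34 ± 0.11 for Uck2 and -0.35 ± 0.15 for Tk1 (limma adjusted p = 0.801 each). Dhodh, of de novo pyrimidine synthesis, differed by 0.12, 0.10 and 0.02 in the 3 comparisons.

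Among 9 nucleotide kinases and enzymes of deoxynucleotide synthesis the smallest p between the times belonged to Nme7, a member of the nucleoside diphosphate kinase family (-0.47 ± 0.23, SE; limma adjusted p = 0.417), and Nme1 of the same family (0.16 ± 0.09; limma adjusted p = 0.435). Nme7 had ratios between -1.67 and -1.18 at 4 h, between -1.10 and -0.76 at 20 min and -0.60, -0.64 and -1.91 on the same-RNA arrays, so a ratio far below 0 was there without HF against HG. The 4 h arrays of Nme7 all lay below its 20 min arrays. Its SE between the times also holds the spread of the same-RNA arrays, where the SD was 0.75, against 0.20 at 4 h and 0.14 at 20 min. Nme6 (0.26), Tyms, the thymidylate synthase (0.19), and Nme7 (-0.37) had the smallest p at 4 h. Without 1HG the 4 h difference of Nme6 was 0.14, while that of Nme7 was -0.15 without 1HG, -0.17 without 3HG and -0.80 without 3HF. At 20 min these were Dck, the deoxycytidine kinase (-0.20), Dut, the dUTPase (0.22), and Nme6 (0.16). Dck came after Nme1 between the times, with 0.14.

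The ratios of cell type markers are given as a description of the samples. For 8 lists (enterocyte, proliferating crypt cell, goblet and Paneth cell, smooth muscle, enteric neuron and glia, immune cell, endothelial and stromal, and exocrine pancreas) the mean ratio of the list on each array overlapped between 4 h and 20 min. Of their 53 entries 0 were called in limma's test of the 3 comparisons, and at an unadjusted p below 0.05 there were 5 at 4 h, 2 at 20 min and 5 between the times. Over all features 0.0641%, 0.0427% and 0.598% were called in these comparisons, and 9.97%, 5.21% and 13.5% had an unadjusted p below 0.05. The 11 enterocyte markers measured had a mean ratio between -0.22 and -0.09 on the 4 h arrays, between -0.22 and 0.05 on the 20 min arrays and between -0.17 and 0.00 on the same-RNA arrays. The 5 crypt cell markers had means between -0.28 and -0.13 at 4 h and between -0.26 and -0.16 at 20 min. On the same-RNA arrays their means lay between -0.44 and -0.02, a range that holds both others. Smooth muscle markers (5 measured) had means between -0.29 and 0.05 at 4 h, between -0.08 and 0.15 at 20 min and between -0.01 and 0.54 on the same-RNA arrays. The median of these 5 lay between 0.03 and 0.14 on the same-RNA arrays. Goblet and Paneth cell markers (5 measured) ranged most at 4 h, with means between -0.47 and 0.36. They lay between -0.40 and -0.03 at 20 min and between -0.51 and 0.01 on the same-RNA arrays. Exocrine pancreas markers (7 measured) had means between -0.36 and -0.01 at 4 h and between -0.32 and -0.02 at 20 min. On the same-RNA arrays these lay between -0.06 and 0.22. The part of such cells in the ratios was not tested.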

How the data were processed

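The values the authors deposited are log ratios, taken as log2, for 4952 probes on 14 arrays (0 missing); per the labels each array has both an HG and an HF channel except the same-RNA and primer arrays. Scanner, background correction, normalization, base and direction were not given in the sources used here. Column medians ran from -0.07 to 0.02. Of the probes 4426 have 1 gene symbol, 2 several and 524 none, and 4371 Entrez identifiers are in the reference gene table of GRCr8. Each array was centred on its median and probes of 1 symbol were averaged, which left 4682 features. With no signal or background at hand, dim probes stayed in, and the number of arrays limits the precision.

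A single fit in limma 3.58.1 (R 4.3.3; lmFit and eBayes) held 12 arrays in 3 groups, 5 at 4 h, 4 at 20 min and 3 same-RNA, with 9 residual and 2.84 prior degrees of freedom. Calls rest on p-values adjusted over all features (Benjamini-Hochberg, below 0.05). The steps were tested on simulated data. The genes, lists and the omission of array 6 were chosen with earlier results of these data known, and the promoter motifs after the promoters had been seen. Named genes are the 4 family genes, the 8 nearest to Prpsap1, the 3 with the smallest p per list and comparison and any called member, and the rank neighbours of Prpsap1.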

Additional observations from a re-analysis of the deposited data

Results flagged for a closer look

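Outlying arrays were sought in 70 groups of values (35 named genes at 4 h and at 20 min) by Dixon's criterion, which picks out about 1 in 20 groups by chance, and 3 were found. Cox5a had 0.0705 on 4 h array 2, below its other 4 h arrays at 0.53 to 0.67. Nt5e had 1.17 on 20 min array 4, where its other 20 min arrays lay between 0.03 and 0.17. Ampd3 had -0.42 on 20 min array 1 and between 0.10 and 0.16 on the others.

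Nme1 and Slc19a1 had every 4 h array above 0 and every 20 min array below 0. For Nme1 the difference between the times was 0.16, with 20 min arrays no further below 0 than -0.05, and it did not pass in limma (adjusted p = 0.435). For Slc19a1, the reduced folate carrier that ranks next to Prpsap1, the difference was 1.13, with ratios of 0.78, 0.69, 0.74, 0.07 and 1.52 at 4 h and -0.07, -0.69, -0.40 and -0.33 at 20 min. Having been named for its rank in this comparison, Slc19a1 is given without a test.

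On arrays outside the tests, Prpsap1 had -0.70 and Prps1 -0.70 on array 6, both beyond the range of their same-RNA arrays. Prps1 had 0.34 on the primer array, above its same-RNA arrays, the highest of which was 0.14.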

How the results depend on the processing

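The differences of Prpsap1 at 4 h kept the direction they were chosen for under every alternative run, and moved by more than the spread between arrays only with quantile normalization (1.22 against the same-RNA arrays and 1.40 between the times). Counts of called features moved more. At 4 h the count was 3, and 0 with array 6 averaged in as deposited. It was 763 with the ratio set against 0 in place of the same-RNA arrays, and from 2 to 5 with 1 array left out (5 without 4 h array 2). At 20 min the count was 2, and 0 with array 6 averaged in either way, with arrays scaled to equal spread or with only the 2 groups compared, and 384 against 0. With 1 array left out it ran from 0 (without 20 min array 2 or 4, or 3HG) to 4 (without 3HF), with 1 without 20 min array 1 or 3. Between the times the count was 28, and 0 with array 6 averaged in as deposited, 18 with its sign turned and 16 with arrays scaled to equal spread. With 1 array left out it ran from 4 (without 20 min array 2) to 29, and the other arrays whose loss moved it by over 1.5 times were 4 h arrays 1 (9), 2 (15) and 3 (13) and 20 min arrays 1 (12), 3 (9) and 4 (7). With the replicate block it was 22, and the block changed no call of a named gene that was tested. The numbers 1 to 4 occur at both times. The deviations of same-numbered arrays correlated across features at -0.07, 0.16, -0.03 and -0.02, and those of arrays with unlike numbers at -0.17 to 0.20. These values cannot settle whether same-numbered arrays share more than a number. The cause of the changes in the counts was not tested.

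Some differences changed sign. Against 0, with the same-RNA arrays no longer subtracted, these were at 4 h Prps2 (0.0206), Hprt1 (0.0079), Uox (0.25) and Uck2 (0.0874), and at 20 min Prpsap2 (-0.0439), Eno1 (0.0104), Ppat (-0.13), Paics (0.0135), Uox (0.46) and Dhodh (-0.0139). At 4 h Paics had -0.0044 with array 6 as deposited, -0.012 with arrays scaled to equal spread and -0.012 with quantile normalization. With the sign of array 6 turned Uck2 had 0.0226 and Nme7 0.0295 at 4 h, and Atic 0.0505 between the times. With array 6 as deposited Dhodh had -0.0149 between the times. With 1 array left out the values at 4 h ran from -0.106 to 0.0140 for Prps2, -0.0251 to 0.0546 for Paics, -0.0471 to 0.170 for Pgm1, -0.00724 to 0.0892 for Tk1 and -0.0598 to 0.0313 for Uck2. At 20 min they ran from -0.102 to 0.0684 for Prps1, -0.0186 to 0.276 for Prpsap2, -0.0271 to 0.122 for Apeh, -0.0139 to 0.365 for Cox5a, -0.0967 to 0.0381 for Eno1, -0.0459 to 0.0339 for Paics, -0.0363 to 0.0794 for Ppat and -6.63 to 0.0494 for Uox. Between the times they ran from -0.0728 to 0.0794 for Atic, -0.0359 to 0.108 for Dhodh, -0.00377 to 0.0348 for Paics, -0.147 to 0.0704 for Pgm1 and -0.0703 to 0.102 for Tkt.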
